A study of Mus musculus with 3 samples.

Results

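The 6 genes Ddit4, Tsc22d3, Fkbp5, Sgk1, Per1 and Txnip were followed in single-cell RNA libraries of brain myeloid cells, to ask whether Ddit4 moved with genes that glucocorticoids are known to induce. They are 6 of the 14221 genes that any of the 3 count tables listed, and all 6 were listed in every table and passed the filter on low counts. Ddit4 was chosen by its summed level, which was higher in the microglia of the MHC class II-deficient library than in those of the wild type (WT) libraries, so its values in that contrast are given as a description with no test. The other 5 were chosen as known glucocorticoid targets.

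Live cells positive for CD11b and CD45, a gate that takes microglia together with other myeloid cells, had been sorted from digested brain, and the libraries were made with a 10x Genomics droplet kit that tags the 3' end of transcripts. Digestion lasted 30 min at 37 C for all 3 libraries. The groups were 1 library of an MHC class II-deficient mouse, in which CD4 T cells are nearly absent, and 2 libraries from WT mice, which the titles call adult. The labels give the same sorted population and no treatment for all 3 libraries, and name neither the class II allele nor an age for the deficient mouse. With 1 deficient library, the spread between deficient animals was not measured, and genotype and library cannot be told apart. The retained cells held 0 unique molecular identifiers (UMIs) of H2-Aa, H2-Ab1 and H2-Eb1, the classical class II chains, in the deficient library, against 2610 to 3802 UMIs of each gene in WT 1 and 2937 to 4448 in WT 2. The filters kept 2257 deficient cells and 4340 and 4667 WT cells, with median depths of 2824 UMIs in the deficient library and 3384.5 and 3338 in WT 1 and WT 2. The deficient library shared 19 barcodes with WT 1 and 13 with WT 2, and the WT libraries shared 30 with each other. Microglia-like cells numbered 2204 in the deficient library and 3906 and 4406 in WT 1 and WT 2. None of the 14 microglial markers passed the test of genotype in these cells with edgeR, DESeq2 or limma voom, nor had any an unadjusted p under 0.05 by edgeR, at a summed level of 48236 CPM (UMIs scaled to 1000000 per library sum) in the deficient library and of 47552 and 50082 CPM in WT 1 and WT 2.

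Glucocorticoids bind the glucocorticoid receptor, encoded by Nr3c1, which then enters the nucleus and activates genes through palindromic response elements in their promoters and enhancers. Ddit4, also called Redd1, inhibits the growth kinase complex mTORC1 and is induced by glucocorticoids, low oxygen, DNA damage and the integrated stress response. Among the others, Tsc22d3 encodes GILZ, an anti-inflammatory effector of glucocorticoids, Fkbp5 a co-chaperone that dampens the receptor, Sgk1 a kinase of ion transport and survival, Per1 a clock repressor, and Txnip an alpha-arrestin that restrains glucose uptake and binds thioredoxin. Most of the 6 also answer to other signals.

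The promoters are shown because the question turns on glucocorticoid control and because only some of them hold the receptor's palindrome close to a start site. In the GENCODE M21 annotation of GRCm38, the build family of mm10, Ddit4 lies at chr10:59949669-59951834 on the minus strand and Sgk1 at chr10:21882184-21999903 on the plus strand. Txnip lies at chr3:96557957-96561883 and Per1 at chr11:69095217-69109960, both on the plus strand. Fkbp5 lies at chr17:28399094-28517527 and Tsc22d3 at chrX:140539528-140600659, both on the minus strand, and all 6 genes are annotated as protein coding. RefSeq windows of 300 bases on GRCm38.p6, from 250 bases before to 50 after a start site, were searched on both strands, with 14 windows for the 6 genes. The full response element, AGAACA and TGTTCT with 3 free bases between them, was found in 1 of the 14, at an alternative start of Sgk1, 189 bases before that start, and in 0.00913% of all 32851 windows. The looser core, GNACA and TGTNC with 3 free bases between them, which also lies inside that full element, was found in 2 of the 14, the same Sgk1 window and that of Txnip, and in 0.475% of all windows. Neither was found in the windows of Ddit4, Tsc22d3, Fkbp5 or Per1. The E-box CACGTG was found at Sgk1, Per1 and Fkbp5 and in 7.15% of all windows, and the ATF4 element TGATGNAAT in none of the 14 and in 0.965% of all. A match is a description of letters, enhancers were not searched, and the 3' tags do not tell which start was used. The 3 windows are printed 5' to 3' on the strand of the gene, with the palindrome in capitals: Ddit4 at chr10:59951721-59952020 (minus strand, no match), Sgk1 at chr10:21993640-21993939 (plus strand, full element) and Txnip at chr3:96557707-96558006 (plus strand, core).
Ddit4: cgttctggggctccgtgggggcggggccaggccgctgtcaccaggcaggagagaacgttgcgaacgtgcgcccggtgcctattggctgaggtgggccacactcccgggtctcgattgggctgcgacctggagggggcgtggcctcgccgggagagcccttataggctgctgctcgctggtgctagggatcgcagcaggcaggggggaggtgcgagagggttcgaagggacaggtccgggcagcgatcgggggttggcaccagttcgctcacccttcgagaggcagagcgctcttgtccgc
Sgk1: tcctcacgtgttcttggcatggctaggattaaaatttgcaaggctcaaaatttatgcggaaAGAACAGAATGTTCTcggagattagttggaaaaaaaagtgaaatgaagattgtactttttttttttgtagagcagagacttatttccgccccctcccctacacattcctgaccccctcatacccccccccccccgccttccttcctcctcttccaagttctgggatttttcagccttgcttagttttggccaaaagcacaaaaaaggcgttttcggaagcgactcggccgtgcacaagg
Txnip: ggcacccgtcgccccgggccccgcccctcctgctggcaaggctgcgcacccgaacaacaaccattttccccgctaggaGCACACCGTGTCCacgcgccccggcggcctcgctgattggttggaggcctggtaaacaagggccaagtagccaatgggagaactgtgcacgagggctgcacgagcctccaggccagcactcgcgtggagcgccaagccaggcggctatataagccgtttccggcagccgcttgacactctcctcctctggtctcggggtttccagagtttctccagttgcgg

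Summed over microglia-like cells, Ddit4 alone of the 6 genes was higher in the deficient library than in both WT libraries. It had 424 UMIs in the deficient library (65.9 CPM), against 202 (14.5 CPM) in WT 1 and 345 (21.97 CPM) in WT 2. Its exact Poisson 95% interval ran from 59.8 to 72.5 CPM in the deficient library, from 12.6 to 16.7 in WT 1 and from 19.7 to 24.4 in WT 2. These intervals cover counting error only. The groups did not overlap, and the fitted log2 fold change of Ddit4 was 1.85 (SE 0.17), or 3.61-fold. The WT libraries also differed from each other by more than their counting error.

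In these summed cells none of the 5 glucocorticoid targets was called higher. Each gene was tested with edgeR's quasi-likelihood test on the 3 sums, with Benjamini-Hochberg adjustment over 11862 genes, and the spread came from the WT pair and from what edgeR shares across genes. Of the 5, 0 were called higher, 1 was called lower and 4 did not pass, in a fit that called 1.76% of all genes higher in the deficient library and 6.74% lower, 8.5% in all. At an unadjusted p under 0.05 by edgeR, 0 of the 5 were higher and 3 lower, and DESeq2 and limma voom each called 0 higher and 1 lower. Tsc22d3 had 170.7 CPM in the deficient library, against 220.8 and 248.7 CPM in WT 1 and WT 2. The deficient value lay below both, and Tsc22d3 fell by 0.45 on the log2 scale (SE 0.10, adjusted p = 0.00848 by edgeR). The call was lost over all retained cells (adjusted p = 0.0508). Without the microglial sub-clusters led by immediate early or cell cycle genes its log2 fold change turned to 0.17 (adjusted p = 0.318).

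Sgk1 and Fkbp5 were lower than both WT libraries without passing the test, and Per1 and Txnip lay between them. Sgk1 had 506.6 CPM in the deficient library, against 665.9 and 580.4 CPM in WT 1 and WT 2 (log2 fold change -0.29, SE 0.11, edgeR adjusted p = 0.148). Fkbp5 had 23.3 CPM in the deficient library, against 30.7 and 29.5 CPM in WT 1 and WT 2 (log2 fold change -0.36, SE 0.13, edgeR adjusted p = 0.124). For Sgk1 alone of these, leaving out the sub-clusters led by immediate early or cell cycle genes brought the test past the threshold, at a log2 fold change of -0.33 (adjusted p = 0.0210). Per1 had 14.1 CPM in the deficient library, against 19.0 and 13.1 CPM in WT 1 and WT 2 (log2 fold change -0.16, SE 0.21, edgeR adjusted p = 0.746). Txnip had 529.4 CPM in the deficient library, against 591.0 and 460.6 CPM in WT 1 and WT 2 (log2 fold change 0.02, SE 0.13, edgeR adjusted p = 0.954). For both, the sign turned with the WT library left out, as Per1 gave 0.11 without WT 1 and -0.40 without WT 2, and Txnip gave 0.20 without WT 1 and -0.16 without WT 2, as log2 ratios of CPM plus 1.

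**Figure D1:**
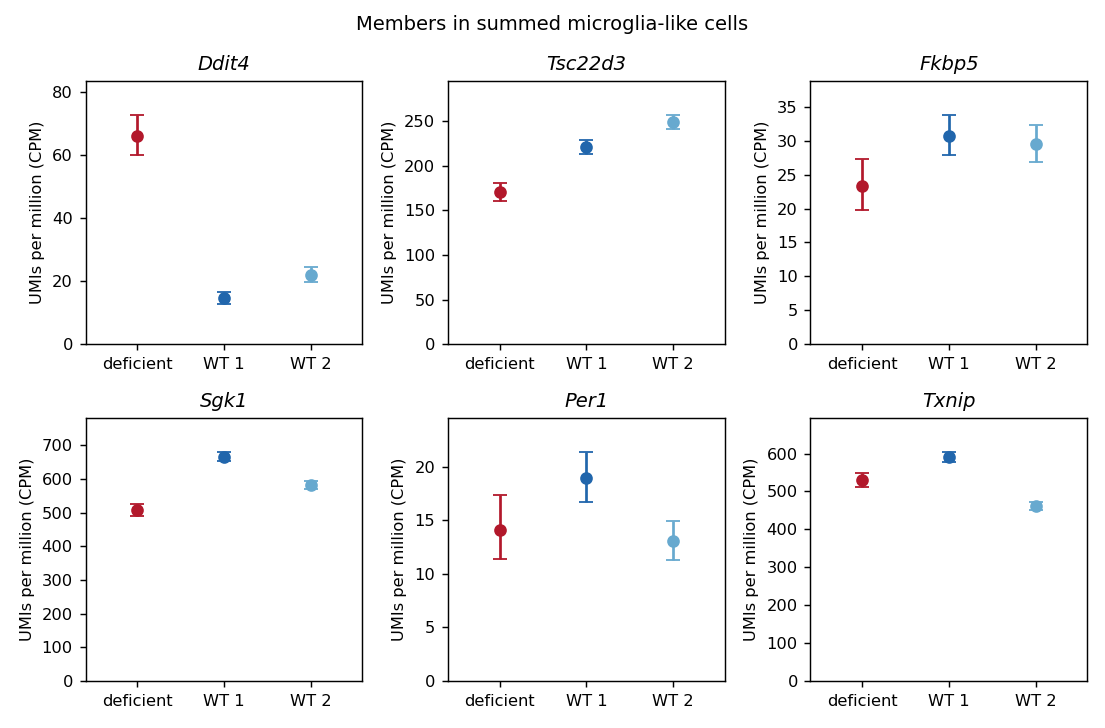
Level of each of the 6 genes in summed microglia-like cells, in CPM from 0, for the MHC class II-deficient, WT 1 and WT 2 libraries from left to right. Points are the summed values and bars exact Poisson 95% intervals, which cover counting error only. Ddit4 stands at 65.9 CPM in the deficient library, above 14.5 and 21.97 CPM in WT 1 and WT 2, while Tsc22d3, Fkbp5 and Sgk1 lie below both WT libraries.

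The difference in Ddit4 was spread over many cells. After every cell was thinned to 1000 UMIs, 5.93% of 2159 deficient microglia-like cells held a Ddit4 UMI (exact Clopper-Pearson 95% interval 4.97 to 7.01%), against 1.35% of 3846 WT 1 cells (1.01 to 1.77%) and 2.19% of 4344 WT 2 cells (1.77 to 2.67%). Thinning left out 45 shallower cells in the deficient library and 60 and 62 in WT 1 and WT 2. The unthinned shares were 15.6% in the deficient library and 4.48% and 6.88% in WT 1 and WT 2, at median depths of 2825.5 UMIs in the deficient library and 3373.5 and 3324 in WT 1 and WT 2. In the deficient library 279 cells held 1 Ddit4 UMI, 52 held 2 and 13 held 3 or more, with a highest count of 4. The highest counts were 5 in each WT library. No class in the sort is known to lack Ddit4, and the unthinned share in neutrophil-like cells was 5.26% of 19 deficient cells and 5.08% and 4.86% of 295 WT 1 and 144 WT 2 cells, at median depths of 1708 in the deficient library and 3055 and 3393 in WT 1 and WT 2. The WT shares in microglia-like cells were thus close to those in neutrophil-like cells, and the part of free RNA in them was not tested.

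The shares of the other genes did not follow that of Ddit4. At 1000 UMIs per cell, Tsc22d3 was detected in 13.2% of deficient cells, against 14.9% and 16.3% of WT 1 and WT 2 cells. Sgk1, at 30.8% of deficient cells against 39.4% and 36.0% of WT 1 and WT 2 cells, was also below both. Fkbp5 was found in 2.36% of deficient cells and in 2.96% and 2.65% of WT 1 and WT 2 cells. For Per1 the shares were 1.34% of deficient cells and 1.59% and 1.10% of WT 1 and WT 2 cells, and for Txnip 37.2% of deficient cells and 39.8% and 34.8% of WT 1 and WT 2 cells, so that both lay between the WT libraries.

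Over all microglia-like cells of a library, the correlation of Ddit4 with each of the other 5 genes was near 0. The Pearson correlation across microglia-like cells, on log-transformed counts per 10000 UMIs, ran from -0.031 to 0.041 over the 15 pairs of Ddit4 with another gene in a library, with a median of 0.012. Over the 30 pairs among the other 5 genes it ran from -0.011 to 0.164, with a median of 0.021, so most of those pairs were near 0 too. In the 2204 deficient cells Ddit4 had r = 0.005 with Tsc22d3, -0.025 with Fkbp5, -0.009 with Sgk1, -0.031 with Per1 and 0.001 with Txnip. In the 3906 and 4406 WT 1 and WT 2 cells, r with Tsc22d3 was 0.023 and 0.027, and with Fkbp5 0.041 and 0.023. Within single sub-clusters of at least 100 cells, described further on, some values lay further from 0, on either side. Ddit4 with Txnip reached r = 0.133 in 267 deficient cells of sub-cluster 3, against 0.089 and 0.003 in 922 WT 1 and 382 WT 2 cells, and 0.203 in 323 WT 2 cells of sub-cluster 4, against 0.022 in 389 WT 1 cells. Ddit4 with Fkbp5 reached 0.130 in the 382 WT 2 cells of sub-cluster 3. The lowest value was that of Ddit4 with Tsc22d3, -0.075 in the 389 WT 1 cells of sub-cluster 4. Cells of a library share their source and depth, most hold no UMI of Ddit4, and correlations in such sparse counts are given as descriptions only. At 2000 UMIs per cell, Tsc22d3 was detected in 23.1% of the 221 deficient cells with Ddit4 and in 22.2% of those without it, against 28.6% and 24.6% in WT 1 and 24.9% and 25.3% in WT 2. The exact 95% intervals of each such pair of shares overlapped.

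**Figure D2:**
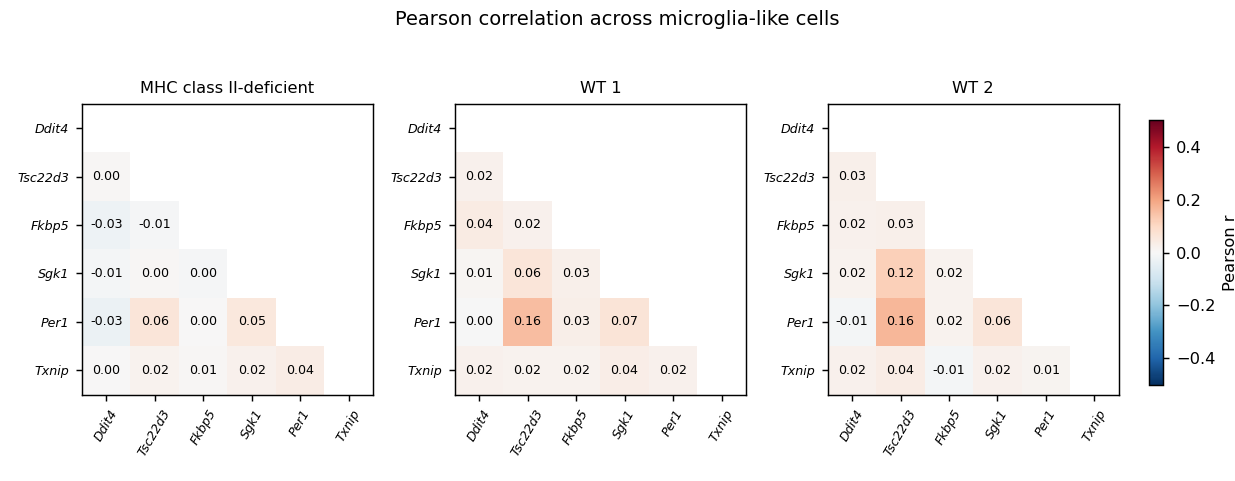
Pearson correlation of each pair of the 6 genes across microglia-like cells, in the deficient, WT 1 and WT 2 libraries from left to right, with r as the number and the colour. The column of Ddit4 stays between -0.03 and 0.04 in every library, and the highest value is that of Tsc22d3 with Per1, 0.06 in the deficient library and 0.16 in both WT libraries.

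Of the 5 targets, the pair with the highest correlation was Tsc22d3 and Per1, with r = 0.062 in the deficient library and 0.155 and 0.164 in WT 1 and WT 2. Without the sub-clusters led by immediate early or cell cycle genes, r was -0.021 in the deficient library and -0.017 and 0.003 in WT 1 and WT 2. Genes were then ranked by the lowest of their 3 within-library correlations, among genes detected in at least 10% of microglia-like cells of every library. The 10 genes ranked nearest to Ddit4, of 3803, were Rtf1, Ubb, Stambpl1, Taf7, Hnrnpm, Srsf2, Txlna, Rbm39, Srsf5 and Mpc2, and the first of them reached no more than 0.0324. Tsc22d3 ranked 391, Txnip 642 and Sgk1 1632 in that order, and Fkbp5 and Per1 were detected in too few cells to be ranked. Correlations with Tsc22d3 reached higher values. Tsc22d3 was also detected, unthinned, in more cells, 28.4% in the deficient library and 34.2% and 35.9% in WT 1 and WT 2. For Ddit4 these shares were 15.6% in the deficient library and 4.48% and 6.88% in WT 1 and WT 2. The part of detection in the higher correlations was not tested. The 10 genes nearest to Tsc22d3 were Ier2, Dusp1, Fos, Atf3, Klf6, Ppp1r15a, Zfp36, Jun, Nfkbia and Ifrd1, of which 9 are on the list of immediate early and dissociation stress genes. Ier2, the nearest, had r = 0.277 with Tsc22d3 in the deficient library and 0.393 and 0.428 in WT 1 and WT 2.

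Levels of the 6 genes also differed between microglial sub-clusters, which had been built without these genes. Sub-cluster 0, led by Ccr6 and Tagap1, held 1702 of the 2204 deficient microglia-like cells (77.2%), against 77 WT 1 cells (1.97%) and 167 WT 2 cells (3.79%), so it is mostly the deficient library. Sub-cluster 1, led by Rnaset2b and Sox4, held 82 deficient cells and 1858 and 2796 WT 1 and WT 2 cells. Sub-cluster 2, led by Notch2 and Slc39a1, held 66 deficient cells and 598 and 661 WT 1 and WT 2 cells. Sub-cluster 3, led by Fam71a, Ccrl2 and Ccl4, held 267 deficient cells and 922 and 382 WT 1 and WT 2 cells. Of its 10 leading genes, 3 are on the immediate early list, so it counts among the sub-clusters led by immediate early genes. Sub-cluster 4, led by the immediate early genes Klf4, Fosb and Atf3, held 46 deficient cells and 389 and 323 WT 1 and WT 2 cells.

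Ddit4 was higher in the deficient library than in both WT libraries in each of sub-clusters 0 to 3, the 4 with at least 50 cells in every library. In sub-cluster 0 it had 74.3 CPM in the deficient library, against 7.23 CPM (1 UMI) and 12.4 CPM (5 UMIs) in WT 1 and WT 2. In sub-cluster 1, where WT cells were most numerous, it had 56.2 CPM in the deficient library (13 UMIs), against 12.01 and 21.9 CPM in WT 1 and WT 2. In sub-clusters 2 and 3 the deficient levels were 42.2 and 43.0 CPM, against 15.9 and 14.1 CPM in WT 1 and 20.5 and 22.9 CPM in WT 2. The deficient level thus lay above both WT levels at each place, although in sub-clusters 2 and 3 the Poisson interval of the deficient level overlapped that of a WT library.

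Within the same 4 sub-clusters Tsc22d3 and Txnip also lay above both WT libraries, the opposite side from the summed value of Tsc22d3. Tsc22d3 had 120.5 CPM in deficient cells of sub-cluster 0, against 65.1 and 87.0 CPM in WT 1 and WT 2, and 159.9 CPM in deficient cells of sub-cluster 1, against 104.5 and 119.0 CPM in WT 1 and WT 2. In sub-cluster 2 it had 142.3 CPM in the deficient library, against 101.3 and 111.9 CPM in WT 1 and WT 2, and in sub-cluster 3 it had 273.2 CPM in the deficient library, against 176.1 and 270.9 CPM in WT 1 and WT 2. The log2 ratio of CPM plus 1, deficient over the WT mean, ran from 0.29 to 0.66 for Tsc22d3 and from 0.33 to 0.68 for Txnip, against 1.17 to 2.80 for Ddit4. In each of the 4, the Poisson interval of deficient Tsc22d3 overlapped that of at least 1 WT library, and no test was made within sub-clusters. For Txnip the deficient interval lay above both WT intervals in sub-cluster 1, at 795.0 CPM in the deficient library against 536.8 and 455.7 CPM in WT 1 and WT 2. The same held for Txnip in sub-cluster 3, at 912.0 CPM in the deficient library against 757.2 and 692.2 CPM in WT 1 and WT 2. It also held for Sgk1 in sub-cluster 3, at 1239 CPM in the deficient library against 935.7 and 948.6 CPM in WT 1 and WT 2. Sgk1 was above both WT libraries in 3 of the 4, Per1 in 3, and Fkbp5 in 1. In sub-cluster 0 Per1 had 7.11 CPM in the deficient library against 0 UMIs in both WT libraries. There, 3 UMIs would be 21.7 and 7.46 CPM in WT 1 and WT 2. In sub-cluster 2 the deficient level of Per1 rested on 2 UMIs. How many of all genes lay above both WT libraries within a sub-cluster was not counted, so these counts are descriptions only.

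The highest level of Tsc22d3 among these sub-clusters was in the immediate early sub-cluster 4. There it had 1042 CPM in the deficient library and 824.6 and 1227 CPM in WT 1 and WT 2. That sub-cluster made up 2.09% of deficient microglia-like cells, against 9.96% and 7.33% of WT 1 and WT 2 cells. Over all microglia-like cells the 36 genes of the immediate early list summed to 13047 CPM in the deficient library, against 30610 and 22189 CPM in WT 1 and WT 2. As given above, leaving out the sub-clusters led by immediate early or cell cycle genes turned the sign of the summed Tsc22d3 change. That alternative drops whole sub-clusters, whose shares differ between the libraries. The part of immediate early levels in the summed Tsc22d3 level was therefore not tested. Per1 was also highest in sub-cluster 4, at 107.4 CPM in the deficient library (20 UMIs) and 67.9 and 62.1 CPM in WT 1 and WT 2, whereas Ddit4 there had 32.2 CPM in the deficient library (6 UMIs) and 20.2 and 26.3 CPM in WT 1 and WT 2.

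**Figure D3:**
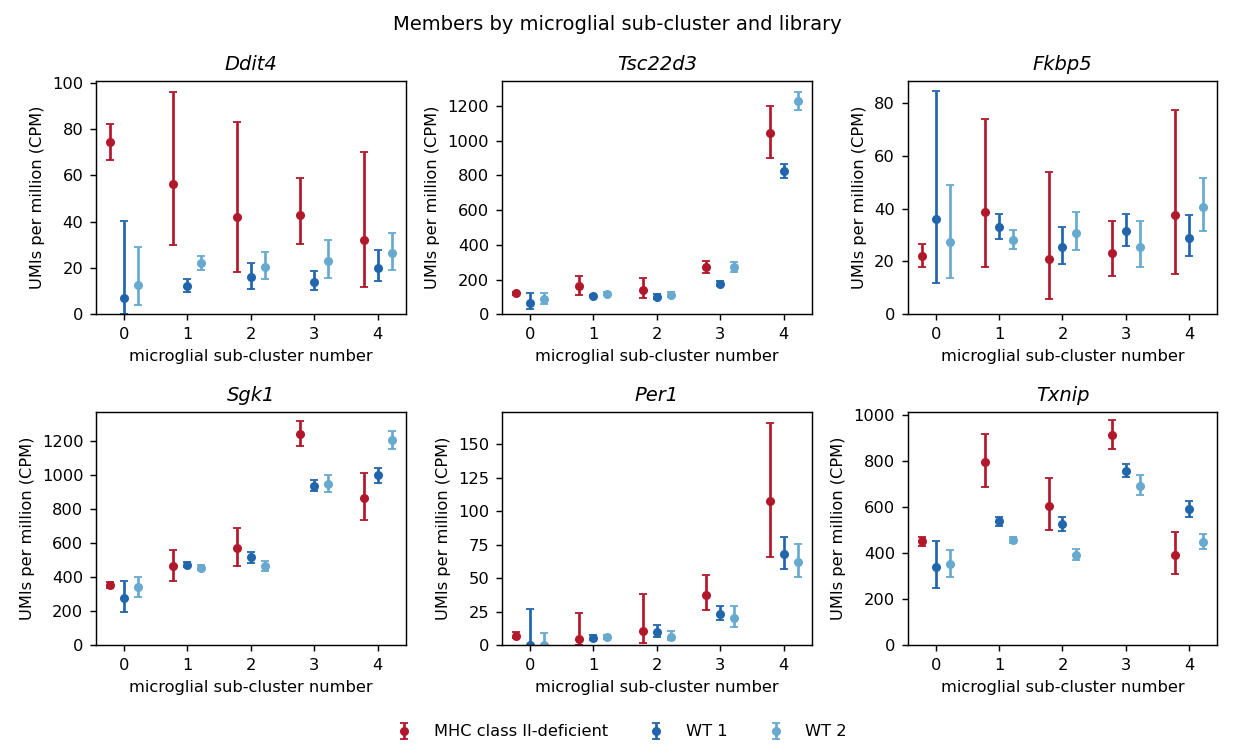
Level of each of the 6 genes in CPM, from 0, in microglial sub-clusters 0 to 4, with the deficient library left of WT 1 and WT 2 at each number. Points are summed values and bars exact Poisson 95% intervals. Ddit4 in the deficient library lies above both WT libraries in sub-clusters 0 to 3, while Tsc22d3 and Per1 are highest in sub-cluster 4 in all 3 libraries.

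Outside the microglia, few deficient cells were available and no test was made. In cells like border-associated macrophages, the macrophages of the meninges and vessels, Ddit4 had 79.5 CPM in the deficient library (5 UMIs in 16 cells), against 6.68 CPM (3 UMIs in 76 cells) and 10.4 CPM (5 UMIs in 68 cells) in WT 1 and WT 2. The deficient interval, 25.8 to 185.5 CPM, lay above that of both WT libraries, 1.38 to 19.5 and 3.36 to 24.2 CPM. In neutrophil-like cells it had 20.0 CPM in the deficient library from 1 UMI, against 17.5 and 10.7 CPM in WT 1 and WT 2. In the 4 deficient cells like classical monocytes there were 2 Ddit4 UMIs, against 7 in 43 WT 1 cells and 2 in 30 WT 2 cells. In cells like non-classical monocytes, the patrolling monocytes of blood vessels, Ddit4 had 134.1 CPM in the deficient library (5 UMIs in 14 cells). The WT 1 and WT 2 levels there were 200.7 CPM (9 UMIs in 10 cells) and 80.9 CPM (4 UMIs in 12 cells). Only 2 deficient cells and 2 and 3 WT 1 and WT 2 cells held these UMIs. The intervals of these last levels overlapped, and in each of the 3 libraries they were the highest of Ddit4 in any class.

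Across classes, the order of the glucocorticoid targets differed from gene to gene. In WT 2 Tsc22d3, like Ddit4, was highest in cells like non-classical monocytes, at 505.6 CPM. In WT 1 Tsc22d3 had 334.5 CPM there, near its 336.5 CPM in border-associated macrophage-like cells. Sgk1 was highest in microglia-like cells in all 3 libraries, at 506.6 CPM in the deficient library and 665.9 and 580.4 CPM in WT 1 and WT 2, against 57.6 and 58.6 CPM in WT 1 and WT 2 neutrophil-like cells. Tsc22d3 in border-associated macrophage-like cells had 270.3 CPM in the deficient library and 336.5 and 488.8 CPM in WT 1 and WT 2. The deficient interval, 157.5 to 432.8 CPM, overlapped both WT intervals, 284.9 to 394.6 and 428.4 to 555.3 CPM. The WT intervals did not overlap each other. Tsc22d3 was also lowest in the deficient library in cells like classical and non-classical monocytes, from 7 UMIs in each. The levels were 270.6 CPM in deficient classical cells against 291.5 and 355.0 CPM in WT 1 and WT 2. In non-classical cells they were 187.7 CPM against 334.5 and 505.6 CPM. In both classes the deficient interval overlapped that of each WT library. In neutrophil-like cells Tsc22d3 was highest in the deficient library, at 320 CPM (16 UMIs in 19 cells) against 140.1 and 126.5 CPM in WT 1 and WT 2. That deficient interval, 182.9 to 519.7 CPM, lay above both WT intervals, 121.0 to 161.4 and 102.4 to 154.7 CPM. Fkbp5 had 0 UMIs in cells like non-classical monocytes of all 3 libraries, where the limit that a count of 0 allows, taken at 3 UMIs, was 80.5 CPM in the deficient library and 66.9 and 60.7 CPM in WT 1 and WT 2. Per1 was lower in microglia-like cells than in neutrophil-like cells of every library, at 60 CPM in deficient neutrophil-like cells (3 UMIs) and 35.02 and 30.6 CPM in those of WT 1 and WT 2, although the intervals of the 2 classes overlapped in the deficient library.

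**Figure D4:**
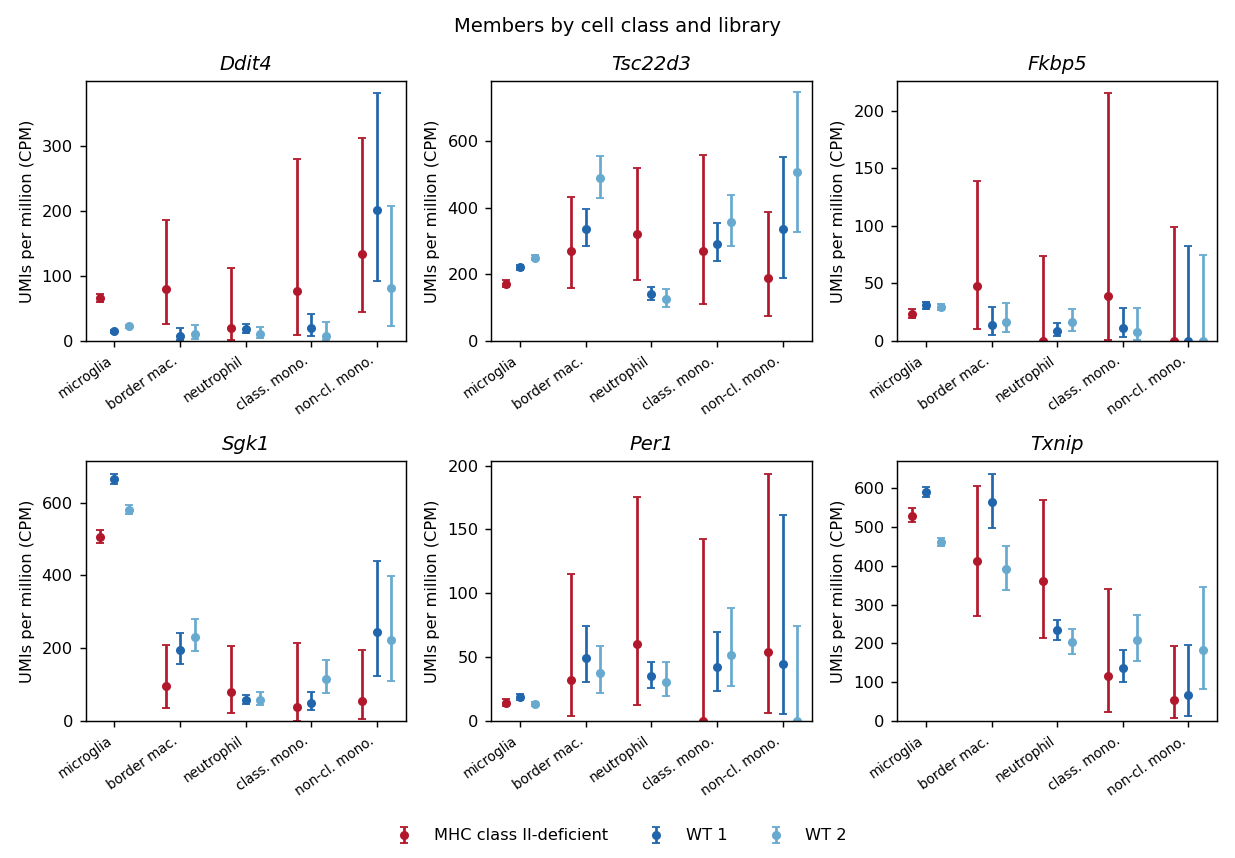
Level of each of the 6 genes in CPM, from 0, in cells like microglia, border-associated macrophages, neutrophils, classical monocytes and non-classical monocytes, with the deficient library left of WT 1 and WT 2. Points are summed values and bars exact Poisson 95% intervals. Outside the microglia the deficient bars are wide, since 4 to 19 deficient cells stand behind each, and Sgk1 is highest in microglia in all 3 libraries.

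Of a list of 40 further glucocorticoid targets 30 were tested, of which 2 were called higher (6.67%), 12 were called lower (40%) and 16 did not pass. Over all genes 1.76% were called higher and 6.74% lower. The median of their log2 fold changes was -0.47, against -0.0015 over all 11862 genes tested. The 2 that rose were Mt2, a metallothionein that binds zinc, and Sult1a1, a sulfotransferase. Their log2 fold changes were 1.38 (SE 0.29, edgeR adjusted p = 0.00440) for Mt2 and 0.39 (SE 0.10, edgeR adjusted p = 0.0126) for Sult1a1. Both calls were lost with DESeq2 and over all retained cells. Of the most abundant genes of the list, Dusp1, a MAP kinase phosphatase, fell to 344.6 CPM (TMM-normalised, as for all genes named from lists) in the deficient library, against 772.6 and 546.5 CPM in WT 1 and WT 2 (edgeR adjusted p = 0.000486). Dusp1 lost this call with DESeq2 (adjusted p = 0.365). Nfkbia, the inhibitor of NF-kB, had 703.4 CPM in the deficient library and 1119 and 615.2 CPM in WT 1 and WT 2, and Zfp36, which destabilises cytokine mRNAs, had 591.3 CPM in the deficient library and 919.4 and 542.3 CPM in WT 1 and WT 2. Neither passed, and their deficient values lay between the WT values. Without the sub-clusters led by immediate early or cell cycle genes Zfp36 passed as lower, at a log2 fold change of -0.50 (edgeR adjusted p = 3.53e-05).

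The other genes of that list that fell were Zfp36l2, Cebpd, Errfi1, Lcn2, Arrdc2, Arrdc3, Cdkn1a, Anxa1, Mknk2, Gadd45a and Klf13. Zfp36l2 had 102.4 CPM in the deficient library, against 516.1 and 524.4 CPM in WT 1 and WT 2 (log2 fold change -2.34, SE 0.12, edgeR adjusted p = 2.41e-10). Anxa1, which encodes the anti-inflammatory protein annexin A1, had 1 UMI in deficient microglia-like cells, against 70 and 57 in WT 1 and WT 2, a ratio of 0.0363 with a counting interval of 0.000911 to 0.206. Its call was lost with DESeq2 (adjusted p = 0.0523). Anxa1 and Lcn2 are also abundant in neutrophils. Of the 13 neutrophil markers, 9 were called lower in microglia-like cells of the deficient library and 0 higher, against 6.74% and 1.76% of all genes. These markers summed to 256.5 CPM in the deficient library, against 1413 and 814.9 CPM in WT 1 and WT 2, and their part in the values of Anxa1 and Lcn2 was not tested. Dusp1, Cebpd, Nfkbia and Zfp36 are on the immediate early list too. Among the 25 tested targets on neither that list nor the neutrophil list, 2 were called higher (8%) and 9 lower (36%), with a median of -0.40. The shares over all genes were 1.76% called higher and 6.74% lower. Without the sub-clusters led by immediate early or cell cycle genes, 2 and 12 of 29 tested targets were called higher and lower, with a median of -0.35.

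**Figure D5:**
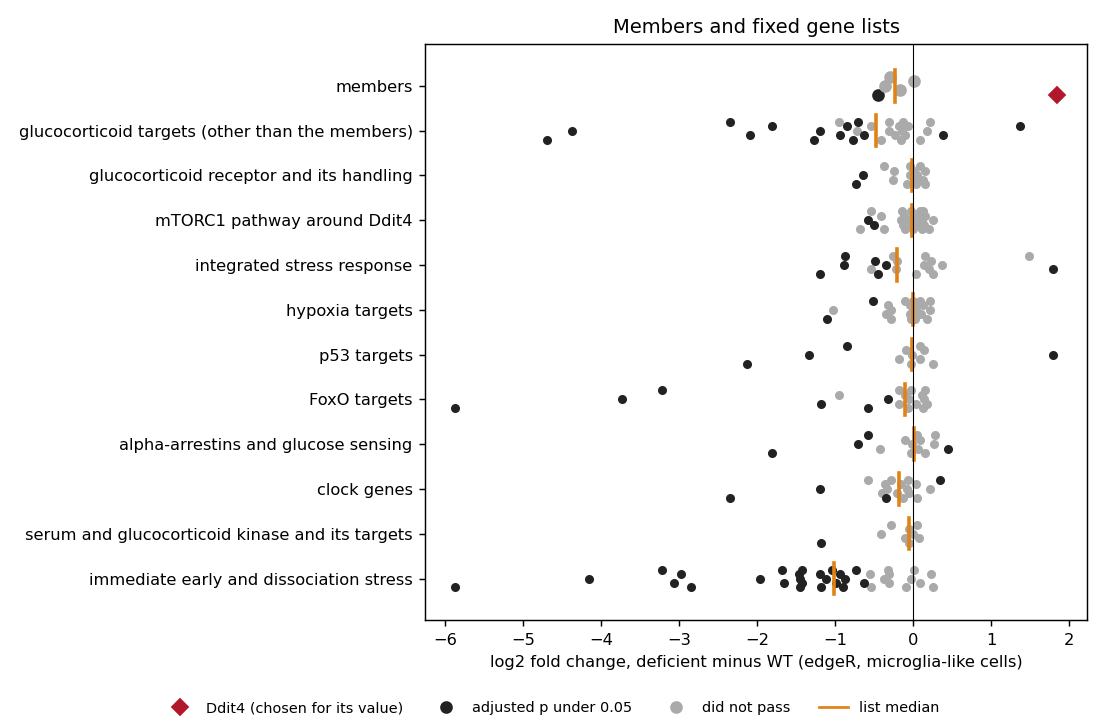
Fitted log2 fold change (deficient minus WT) in microglia-like cells of the 6 genes, in the top line, and of the tested genes of 11 lists below. Black points passed an adjusted p of 0.05 with edgeR, grey points did not, the red diamond is Ddit4, which was chosen for this value, and orange bars are medians, -0.47 for the other glucocorticoid targets and -1.01 for the immediate early genes.

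Of 16 tested genes for the receptor and the proteins that handle it, 0 were called higher and 2 lower, Dnajb1 and Ncor1, with a median log2 fold change of -0.01. The shares over all genes were 1.76% called higher and 6.74% lower. At an unadjusted p under 0.05 by edgeR 0 were higher and 4 lower, and DESeq2 and limma voom each called 0 higher and 3 lower. Nr3c1, the receptor itself, had 183.2 CPM in the deficient library, against 193.2 and 193.3 CPM in WT 1 and WT 2 (log2 fold change -0.08, SE 0.09, edgeR adjusted p = 0.716). The chaperones Hspa8, Hsp90ab1 and Hsp90aa1, the most abundant of the list, had log2 fold changes of -0.37, 0.12 and 0.02, and none passed with edgeR. Hspa8 passed as lower with DESeq2 (adjusted p = 0.0295), with limma voom (adjusted p = 0.0494) and in edgeR with WT counts thinned to the deficient total (adjusted p = 0.0390). Dnajb1, a co-chaperone that is also on the immediate early list, fell to 195.8 CPM in the deficient library, against 318.0 and 332.5 CPM in WT 1 and WT 2 (edgeR adjusted p = 6.52e-05). Without the sub-clusters led by immediate early or cell cycle genes its call was lost, at -0.23 (adjusted p = 0.143). Hsd11b1, which regenerates active glucocorticoid, had no UMI in deficient microglia-like cells. It did not pass the filter on low counts over the 3 libraries and was not tested, so that count is no comparison with WT.

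Of 27 tested genes of the pathway around mTORC1, the complex that Ddit4 inhibits, 0 were called higher and 2 lower, Eif4ebp2, a translation repressor, and Rragc, a GTPase that brings mTORC1 to the lysosome, with a median of -0.01. These counts are near the shares over all genes, 1.76% called higher and 6.74% lower. At an unadjusted p under 0.05 by edgeR 0 were higher and 4 lower, and DESeq2 called 0 in either direction and limma voom 0 higher and 2 lower. The log2 fold changes were 0.09 for Ywhae and 0.09 for Lamtor1, and -0.01 for Rheb, the GTPase that activates mTORC1.

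Lists for the other known inducers of Ddit4 are read against the same shares over all genes, 1.76% called higher and 6.74% lower. Of 19 tested genes of the integrated stress response 1 was called higher and 6 lower, with a median of -0.21, whereas DESeq2 called 0 in either direction. Gdf15, a stress cytokine, was the one that rose, with 40.6 CPM in the deficient library against 17.3 and 6.39 CPM in WT 1 and WT 2 (log2 fold change 1.80, SE 0.30, edgeR adjusted p = 0.000510). Gdf15 lost the call with DESeq2 (adjusted p = 0.869) and over all retained cells (adjusted p = 0.0612), and turned to -0.92 (adjusted p = 0.232) without the sub-clusters led by immediate early or cell cycle genes. Atf4, the central transcription factor of that response, fell to 121.3 CPM in the deficient library, against 185.4 and 155.2 CPM in WT 1 and WT 2 (edgeR adjusted p = 0.00746). Its call was lost with DESeq2 (adjusted p = 0.0522), over all retained cells and without those sub-clusters. Atf3 and Ppp1r15a, both also immediate early genes, fell, with log2 fold changes of -0.87 and -1.20, and Slc3a2 had a value of 0.04.

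Of 23 tested hypoxia targets 0 were called higher and 2 lower, with a median of -0.0005. At an unadjusted p under 0.05 by edgeR 1 was higher and 2 lower, and DESeq2 and limma voom called 0 higher and 1 and 2 lower. Mxi1, a MYC antagonist, fell to 16.1 CPM in the deficient library, against 35.7 and 33.6 CPM in WT 1 and WT 2, while the glycolytic enzymes Aldoa and Ldha had log2 fold changes of 0.01 and 0.01 and P4ha1, a collagen hydroxylase, had 0.11. Of 12 tested p53 targets 1, Gdf15, was called higher and 3 lower, with a median of -0.01. Bbc3, the pro-apoptotic PUMA, and Cdkn1a, the cell cycle inhibitor p21, fell, with log2 fold changes of -2.13 and -0.84, and Bax and Sesn1 had values of -0.02 and 0.14.

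Lists next to the other members gave these counts, to be read beside shares over all genes of 1.76% called higher and 6.74% lower. For the lists around Sgk1, of FoxO targets and of immediate early genes, where edgeR called 0 higher, DESeq2 and limma voom also called 0 higher, and 0, 0 and 1 genes were higher at an unadjusted p under 0.05 by edgeR. Around Sgk1, 0 of 9 tested genes were called higher and 1 lower, Foxo1, at 10.2 CPM in the deficient library against 25.9 and 20.3 CPM in WT 1 and WT 2. Wnk1, Sgk3 and Rictor had log2 fold changes of 0.07, -0.28 and 0.05. Of 19 tested FoxO targets, which the SGK and AKT kinases restrain, 0 were called higher and 6 lower, with a median of -0.10. Klf2 and Klf4, which are on the immediate early list as well, fell, with log2 fold changes of -5.87 and -3.22, and Ccng2 fell by 0.31 (edgeR adjusted p = 0.0428), a call that was lost under 5 alternatives. Around Per1, 1 of 18 tested clock genes was called higher, Per3, and 3 lower, with a median of -0.18, and Per3 lost its call under 4 alternatives. Nfil3, a clock repressor, had 1.41 CPM in the deficient library, against 7.64 and 6.71 CPM in WT 1 and WT 2. Csnk1e fell by 0.35, a call that was lost with DESeq2 (adjusted p = 0.177) and over all retained cells (adjusted p = 0.103), and Bhlhe41 and Csnk1d had 0.06 and -0.21. Around Txnip, 1 of 14 tested genes was called higher and 3 lower, with a median of 0.01. Its relatives Arrdc2 and Arrdc3 and the inflammasome sensor Nlrp3 fell, with log2 fold changes of -1.81, -0.70 and -0.58. The call of Arrdc3 was lost with DESeq2 (adjusted p = 0.0564) and without the sub-clusters led by immediate early or cell cycle genes, at -0.35 (adjusted p = 0.189), where Nlrp3 became -0.13 (adjusted p = 0.645). The glucose-sensing genes Hk2 and Mlxipl had 0.15 and -0.03. Of the 36 immediate early genes, 0 were called higher and 24 lower, with a median of -1.01, among them Jun and Fos at -0.98 and -1.46, while Junb, at -0.55, did not pass. DESeq2 called 13 of the list lower, and Jun and Fos lost their calls there (adjusted p = 0.164 and 0.344). Junb passed without the sub-clusters led by immediate early or cell cycle genes, at -0.85 (edgeR adjusted p = 1.14e-12), and with WT counts thinned to the deficient total (adjusted p = 0.0173).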

How the data were processed

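The members and the gene lists were chosen with earlier results of these data known. The deposited files, 1 per library, give each cell's raw UMI count for each gene, and per the submitters' processing notes Cell Ranger 3.0, Seurat 2.2 and the mm10 build were used by the authors, whose filters the sources used here do not give. Nearly every gene a table lists was seen in at least 5 cells, so an unlisted gene is below that limit. Barcodes with 500 or more UMIs, 200 or more genes and no more than 10% mitochondrial UMIs were retained. Scanpy 1.11.5 with leidenalg 0.10.2 clustered the cells on 2000 variable genes and 30 components, without the 6 members, the list of glucocorticoid targets, class II genes and sex-linked genes. Clusters were named from marker lists, and 1 cluster of 17 WT cells stayed unnamed. Scrublet called 6 of 11264 cells (0.0533%), so it is taken not to have worked, its calls were kept in, and doublets can remain.

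UMIs were summed per library over microglia-like cells, since cells are not replicates, to 6433271 in the deficient library and 13919752 and 15705765 in WT 1 and WT 2. Of the genes shared by the 3 tables, 11862 passed filterByExpr and entered the quasi-likelihood fit of edgeR 4.0.16 in R 4.3.3 with TMM factors, at an adjusted p of 0.05, with 1 residual degree of freedom. The WT titles carry replicate numbers, and the design text names separate mice. On simulated counts for this comparison, 100% of genes changed by 2 or -2 on the log2 scale were called, 94% of those changed by 1, 84.7% of those changed by -1 and 0.0372% of unchanged genes. The changed genes were drawn from those above a lower limit of level, and the spread was the trend of the same fit. Changes smaller than 1 were not simulated, so these rates do not cover folds as small as those of the members other than Ddit4. CPM levels of members are plain scaled UMIs without TMM, and all intervals cover counting error only. Genes named were the members, of each list the 3 of highest mean CPM and the 1 of largest fold, and the 10 most correlated with Ddit4 and with Tsc22d3. A gene taken by this rule is not reported here. Nr3c1, Hsd11b1, Atf4, Per3, Ncor1, Eif4ebp2, Rragc and the called glucocorticoid targets were named after their values were seen. Alternatives covered normalisation, the count filter, tools (DESeq2 1.42.0, limma 3.58.1), cell sets, depth and each WT library left out.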

Additional observations from a re-analysis of the deposited data

How the results depend on the processing

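The main limits are the single deficient library, a spread that comes from 1 WT pair, and few Ddit4 UMIs outside microglia, where no test was made. No paired analysis was possible because the deficient group has 1 library and the groups share 1 replicate number. The log2 fold change of Ddit4 ran from 1.83 to 2.01 over 10 alternatives and from 1.54 to 2.11 with a WT library left out. The fall of Tsc22d3 became -0.48 (adjusted p = 0.0508) over all retained cells, and ran from -0.54 to -0.37 with a WT library left out. Without the immediate early and cell cycle sub-clusters Tsc22d3 turned to 0.17, Per1 to 0.23, Txnip to -0.019, Hsp90aa1 to -0.12, Rheb to 0.073, Gdf15 to -0.92 and Bhlhe41 to -0.037, and Sgk1 passed at -0.33. Over all retained cells Aldoa turned to -0.082, Ldha to -0.18 and Mlxipl to 0.037, and Ldha turned to -0.038 with thinned WT counts. With a WT library left out Fkbp5 ran from -0.38 to -0.33. Except for Gdf15 and Tsc22d3, the main value of each of these had not passed, and the cause of each change was not tested. Calls of higher genes numbered 209, against 55 with DESeq2 and 112 over all retained cells, and of lower genes 799, against 431 with DESeq2. Of the 2 glucocorticoid targets called higher, 0 were called with DESeq2 and 0 over all retained cells. The share of cells with a Ddit4 UMI moved with depth, to 11.4% in the deficient library and 2.66% and 3.94% in WT 1 and WT 2 at 2000 UMIs, and to 15.6% in the deficient library and 4.48% and 6.88% in WT 1 and WT 2 unthinned. The median correlation of Ddit4 with the other 5 was 0.0036 at 1000 UMIs, 0.0036 at 2000 UMIs and 0.0045 without those sub-clusters. Leaving out the cells that Scrublet called was chosen after seeing the data, and it changed the side of the threshold of none of the members. Leaving out a WT library gives no test, so counts of calls have no such value.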
